A study of Rattus norvegicus with 4 samples.

Results

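The plasma membrane and lysosomal amino acid transporters of the Slc1, Slc3, Slc7, Slc36, Slc38 and Slc43 families were followed by ribosome profiling in ventricular cardiomyocytes of newborn rats (NRVCs). The members are the genes of these 6 families, picked by symbol, that have an annotated coding open reading frame (ORF) in the deposited ORF list. Each gene is represented by its annotated ORF with the most counts. There were 33 such genes among 13694 genes with an annotated ORF, and each had 1 annotated ORF. Of these 33, 28 had enough footprints to be tested for a change.

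The cells came from the cardiac ventricle of Sprague-Dawley rats at postnatal day 2 and were cultured in high-glucose medium with fetal bovine serum, GlutaMAX and pyruvate. One group was exposed to phenylephrine (PE, an agonist of α1-adrenergic receptors and a hypertrophic stimulus for these cells) at a dose of 20 µM during 24 h, and the other was untreated. Each group had 2 libraries, with 12117629 and 12537740 counts for PE and 11446574 and 13827599 for control. The counts of the 2 libraries of a group were more unlike than counting alone would give (chi-square over its degrees of freedom 1.60 for PE and 1.61 for control). Whether the replicates are separate cultures is not labelled, and a p-value here refers to the variation among these libraries, which may be technical. The labels describe a plating step that removes adherent cells other than cardiomyocytes.

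In ribosome profiling, RNA fragments covered by ribosomes are sequenced, and a count on an ORF reflects both the amount of its mRNA and how heavily that mRNA is translated. RNA-seq was not analysed here, so these contributions cannot be told apart, nor can fewer cells of a type and less of an RNA per cell. Values are given as CPM (counts scaled to library size with TMM factors), and levels of different genes are compared per ORF length as RPKM, the CPM divided by the ORF length in kilobases.

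Amino acid transporters fall into functional systems. Slc38 carriers of system A import small neutral amino acids with sodium. Slc1a4 and Slc1a5 exchange neutral amino acids, while the other Slc1 proteins import glutamate and aspartate. Slc3a2 (CD98 heavy chain) carries no substrate itself but brings several Slc7 light chains to the plasma membrane, among them the leucine exchangers Slc7a5 and Slc7a8 and the cystine importer Slc7a11. Slc7a1 and Slc7a2 import arginine and lysine, and several Slc36 and Slc38 proteins sit on lysosomes, where Slc38a9 takes part in arginine sensing for the growth kinase complex mTORC1. Many of these genes are transcribed under amino acid shortage through ATF4, a transcription factor that binds C/EBP-ATF response elements.

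Because shortage-response elements are the best known control sequences of these genes, the RefSeq promoter windows (assembly GRCr8, 250 bases before and 50 after the listed start) were searched for the core of that element, TGATGNAA on either strand. A window was found for 25 of the 33 genes. The core was present in 3 of them, Slc38a1, Slc7a1 and Slc1a4, and in 3.98% of all 33469 windows. The capitals below mark the core. For Slc1a4 the match is on the reverse strand. For Slc38a1 (chr7:129681525-129681554, minus strand) and Slc1a4 (chr14:98761779-98761808, minus strand), only 30 bases are shown, since the RefSeq gene extends over the window. For Slc7a1 (chr12:11664238-11664487, plus strand) and Slc38a2 (chr7:129742620-129742869, minus strand) the 250 bases before the start are shown. Slc38a2 is given for comparison with its neighbour Slc38a1 and held no match in this window, which says nothing about elements elsewhere in the gene.
Slc38a1: gggggaaactcTGATGCAAccaaccagtcc
Slc1a4: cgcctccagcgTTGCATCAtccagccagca
Slc7a1: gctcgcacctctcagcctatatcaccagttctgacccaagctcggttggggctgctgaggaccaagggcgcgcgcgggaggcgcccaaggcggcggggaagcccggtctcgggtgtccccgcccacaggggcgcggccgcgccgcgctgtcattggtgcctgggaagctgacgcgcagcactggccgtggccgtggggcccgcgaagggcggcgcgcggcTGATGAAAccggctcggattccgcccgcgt
Slc38a2: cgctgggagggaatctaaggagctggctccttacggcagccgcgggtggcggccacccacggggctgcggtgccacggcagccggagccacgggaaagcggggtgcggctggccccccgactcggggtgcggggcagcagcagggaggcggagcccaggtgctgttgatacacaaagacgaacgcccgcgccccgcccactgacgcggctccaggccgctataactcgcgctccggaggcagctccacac

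Other short motifs were searched in the same windows. The E-box CACGTG was present in 6 of the 25 genes (Slc1a4, Slc1a7, Slc36a1, Slc38a7, Slc43a1 and Slc7a5) and in 6.42% of all windows. The antioxidant response core TGACNNNGC was present in 5 (Slc36a1, Slc38a2, Slc3a2, Slc7a1 and Slc7a7) and in 12.1% of all windows. The AP-1-like pattern TGANTCA, which allows any central base, was present in 3 (Slc1a7, Slc38a1 and Slc38a7) and in 7.33%. These matches read TGAATCA in Slc1a7 and Slc38a1 and TGATTCA in Slc38a7, so none had the central C or G of the AP-1 site. All motifs were read on both strands, and the only overlap between motifs in these genes was in Slc36a1, where an E-box and an antioxidant response core share bases. These are letter matches, and binding was not measured.

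After PE, footprints were lower on more transporter ORFs than they were higher. By edgeR (quasi-likelihood test, Benjamini-Hochberg adjustment over 12609 ORFs, threshold 0.05), 14 of the 28 tested members fell and 6 rose, 20 in all. Over all ORFs tested, 21.3% were called lower and 21.4% higher, together 42.7%. With library totals in place of TMM factors, 16 members were lower and 3 higher, and over all ORFs 24.5% were lower and 18.5% higher, so the split depends on the scaling. Over annotated ORFs alone, with TMM factors, 22.7% were lower and 22.3% higher, together 45.0%. The median log2 fold change of the members (PE over control) was -0.16, against -0.01 over annotated ORFs. The 2 PE libraries lay below both control libraries in 17 members and above them in 6, and the groups overlapped in 5. Over all ORFs tested the PE libraries lay below in 34.3% and above in 34.4% (together 68.6%), and over annotated ORFs below in 35.7% and above in 34.5% (together 70.2%). The fallen members included the heavy chain Slc3a2, the abundant system A carrier Slc38a2, the arginine importer Slc7a2 and the cystine importer Slc7a11. The risen members were Slc1a1, Slc1a3, Slc38a1, Slc7a1, Slc7a6 and Slc43a3.

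Most of these changes were small. Against a 1.5-fold change in place of no change, the test called Slc1a1 higher and Slc38a5 lower, 1 in each direction, where 3.64% of all ORFs were called higher and 4.36% lower. The number of members that rose was 3 without control replicate 1, where Slc7a1, Slc7a6 and Slc43a3 lost their calls. In the authors' deposited table, which holds their DESeq2 comparison, 10 members were lower and 3 higher at an adjusted p of 0.05, of 28 with an adjusted p. That table calls 12.8% of its ORFs lower and 12.9% higher.

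**Figure D1:**
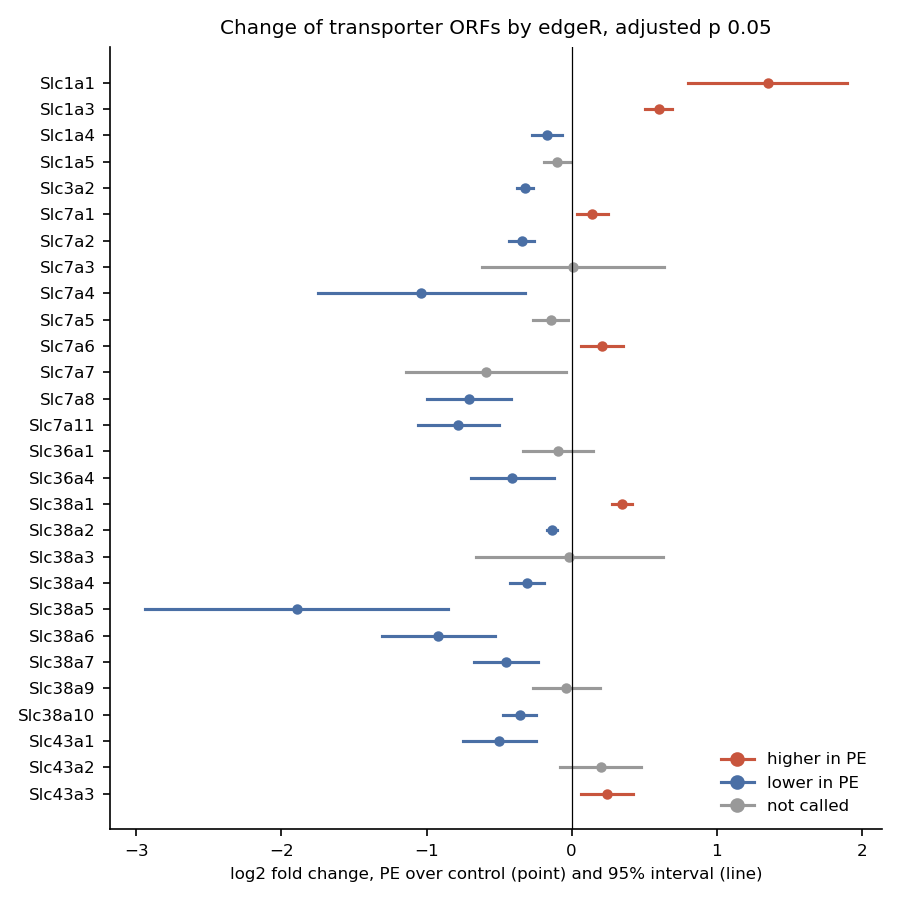
Fold changes of the 28 tested transporter ORFs by edgeR, with log2 fold change (PE over control) on the horizontal axis and genes down the page; points are estimates, lines are 95% intervals and colours give the call. Of the 28 points, 20 lie left of 0 and 8 right of it, and the widest intervals belong to low-count genes such as Slc38a5, Slc7a4 and Slc38a3.

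Markers of other cells in the culture moved too. Their counts stand beside 22.3% of annotated ORFs called higher and 22.7% called lower. Fibroblast markers were lower in PE for 7 of 9 tested genes and higher for 1 (Dcn), with a summed level of 21083 to 21315 CPM in PE and 34717 to 34987 CPM in control. Macrophage markers fell for 6 of 8, at 267 to 277 CPM in PE and 440 to 464 CPM in control, and endothelial markers fell for 4 of 7 and rose for 1, at 134 to 140 CPM in PE and 224 to 232 CPM in control. Smooth muscle and pericyte markers fell for 5 of 7 and rose for 2, at 2636 to 2670 CPM in PE and 2510 to 2549 CPM in control. Their sum was higher in PE although most fell, and Cnn1 had 3028 and 3109 counts in PE, against 671 and 748 in control. Of 9 cardiomyocyte markers 7 fell and 2 rose (Tnnt2 and Nppa, a natriuretic peptide gene that hypertrophic stimuli induce), with a sum of 67995 to 68486 CPM in PE and 62029 to 62137 CPM in control. Without Nppa, left out after its values were seen, the order of the sums turned round, to 50244 to 50616 CPM in PE and 57056 to 57312 CPM in control. In that sum Myh6 had 2654 ± 53.3 CPM in PE and 6592 ± 34.2 CPM in control. Myh6 had only 0.190 counts per pooled P-site and Myh7 0.664, where the median over all ORFs was 1.12. The endothelial marker Kdr had 0.276. Part of the footprints of these genes may therefore be missing from the sums. Schwann and neuronal markers summed to 52.9 to 62.8 CPM in PE and 47.6 to 49.2 CPM in control, where 1 of 2 tested genes rose, and the 1 listed erythroid marker had at most 0.502 CPM in PE and 0.143 CPM in control. No listed marker was at 0 in all libraries, although the fibroblast collagen Col1a2 had only 0 and 2 counts in PE and 0 and 0 in control, beside 158850 pooled P-sites on the same ORF, so its count does not show that its footprints were scarce. It was not tested. The part of these markers in the transporter changes was not tested.

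The transporters differed widely in level. Slc38a2 was by far the most heavily occupied, at 940 ± 2.57 RPKM in PE and 1032 ± 5.37 RPKM in control (SD, n = 2), and ranked 113 of 15034 annotated ORFs. It alone held 49.7% and 49.6% of the members' summed footprints per kilobase in the PE libraries, against 51.0% and 50.9% in the control libraries. Slc3a2 came next, with 183 ± 3.25 RPKM in PE and 229 ± 2.63 RPKM in control, followed by Slc38a1 with 172 ± 0.689 RPKM in PE and 136 ± 2.72 RPKM in control. In all, 16 members lay at or above 10 RPKM and 6 below 1.

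Summed over the 33 members, footprints amounted to 3002 and 3021 CPM in PE and 3226 and 3253 CPM in control. Without Slc38a2 the sum was 1584 and 1598 CPM in PE and 1672 and 1687 CPM in control. Both sums were lower in each PE library than in either control library. Counts and pooled P-sites (footprints placed by the codon in the peptidyl site, pooled over libraries in the deposited annotation) went together for nearly all members, with a median of 1.18 counts per P-site against 1.12 over all ORFs. The exceptions, each under 0.5, were Slc7a3, Slc36a2 and Slc36a3.

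**Figure D2:**
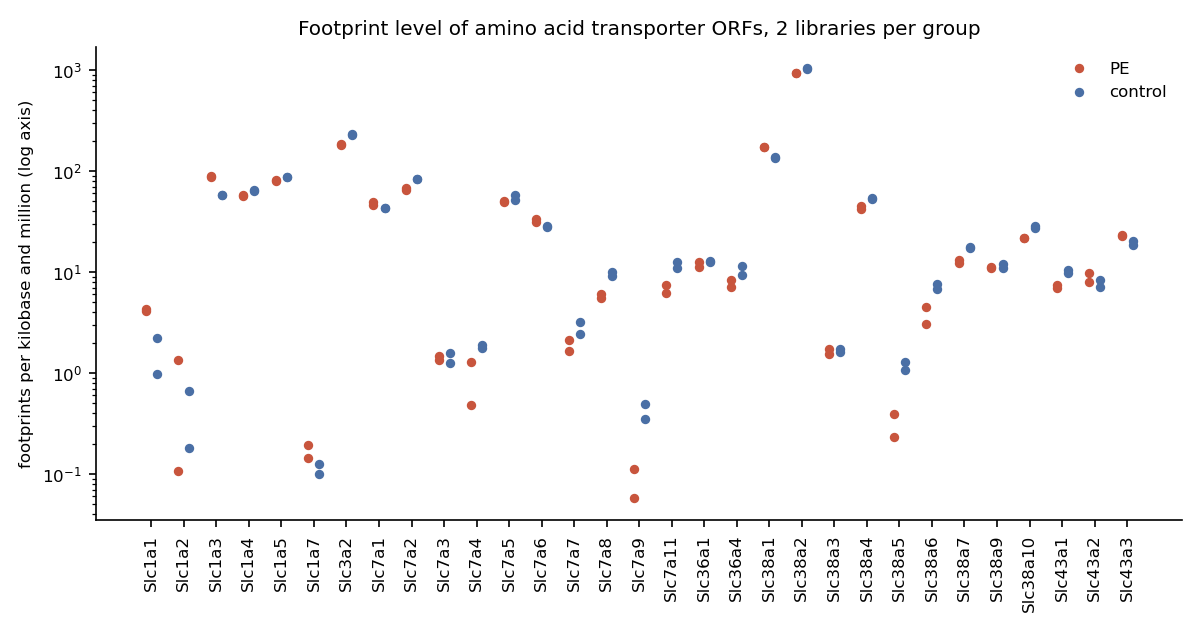
Level in RPKM (log axis) for the members with at least 5 counts in all, with PE libraries to the left of control libraries for each gene and 1 point per library. Slc38a2 is highest, at 940 RPKM in PE and 1032 RPKM in control, and replicate points lie close together for the abundant genes and apart for the scarce ones.

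System A moved apart within itself. Its members Slc38a1, Slc38a2 and Slc38a4 lie side by side on the minus strand of chromosome 7 (Rnor_6.0, coding spans 137975971 to 138021074, 138091363 to 138099854 and 138461744 to 138483595). Slc38a1 had 250.02 and 251 CPM in PE, against 194 and 200.01 CPM in control. Both PE libraries were above both controls, and the log2 fold change was 0.35 ± 0.03 (SE; edgeR adjusted p = 3.9e-10). Slc38a2, a glutamine and alanine importer that responds to amino acid supply, had 1418 and 1423 CPM in PE, against 1555 and 1566 CPM in control. It fell by 0.14 ± 0.02 on the log2 scale (edgeR adjusted p = 4.2e-08), a small shift that was nevertheless wider than the gap between replicates. Slc38a4 had 68.5 and 73.2 CPM in PE, against 85.8 and 89.2 CPM in control, a log2 fold change of -0.30 ± 0.06 (edgeR adjusted p = 4.7e-05).

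The make-up of system A footprints differed between the groups. Slc38a1 took 14.9% and 14.9% of the system's footprints per kilobase in the PE libraries, against 11.01% and 11.2% in the control libraries. Slc38a2 took 81.4% and 81.2% in PE, against 84.7% and 84.4% in control. The shares of the 2 groups did not overlap for any of the 3 genes, and they were not tested.

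The remaining Slc38 genes were lower or unresolved. Slc38a10, a carrier of glutamine, glutamate and aspartate in mouse, had 71.1 and 72.4 CPM in PE, against 94.9 and 89.4 CPM in control, a log2 fold change of -0.36 ± 0.06 (edgeR adjusted p = 2.8e-06). Slc38a7, which exports glutamine and asparagine from lysosomes of human cells, had 17.1 and 18.4 CPM in PE, against 24.3 and 24.3 CPM in control, and fell by 0.45 ± 0.11 on the log2 scale. Slc38a6 had 4.18 and 6.18 CPM in PE, against 10.4 and 9.27 CPM in control, and fell by 0.92 ± 0.19 on the log2 scale. In all 3 genes the groups were apart, though the PE libraries of Slc38a6 differed from each other by more than its control libraries did.

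Low counts limit what can be said of the system N carriers, which move glutamine and histidine in both directions. Slc38a5 had only 4 and 7 counts in PE, against 18 and 26 in control, and fell by 1.89 ± 0.51 on the log2 scale (edgeR adjusted p = 0.0030). Leaving out control replicate 2 lost that call (adjusted p = 0.054), as did testing with DESeq2 (adjusted p = 0.056). Slc38a3, with 29 to 34 counts in each library, had a log2 fold change of -0.02 and a 95% interval of -0.66 to 0.63. The lysosomal arginine sensor Slc38a9 had 18.6 and 18.9 CPM in PE, against 20.2 and 18.3 CPM in control. Its groups overlapped, and the 95% interval of its log2 fold change was -0.27 to 0.19.

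Both glutamate carriers that could be tested rose. Slc1a3 (GLAST; chromosome 2, 57862902 to 57933539), a sodium-driven importer of glutamate and aspartate best known from astrocytes and also present in heart, had 146 and 142 CPM in PE, against 94.2 and 95.4 CPM in control. The PE libraries stood well above the controls, at 1.52-fold, with a log2 fold change of 0.60 ± 0.05 (edgeR adjusted p = 1.0e-12). Slc1a1 (chromosome 1, 246955106 to 247035015), which imports glutamate and cysteine, had 77 and 84 counts in PE, against 18 and 49 in control. It rose 2.55-fold, with a log2 fold change of 1.35 ± 0.27 (edgeR adjusted p = 1.0e-04). The groups did not overlap, but the control libraries were far from each other. Without control replicate 1 its log2 fold change was 0.92, and without control replicate 2 it was 2.09. The other glutamate carriers were near the floor, Slc1a2 with 1 and 13 counts in PE and 6 and 2 in control, and Slc1a7 with 4 and 3 counts in PE and 2 and 3 in control. Neither could be tested.

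The neutral amino acid exchangers of the same family did not rise. Slc1a4 had 92.2 and 89.6 CPM in PE, against 101 and 104 CPM in control, and its log2 fold change of -0.17 ± 0.05 was called (edgeR adjusted p = 0.0068). Leaving out PE replicate 2 (adjusted p = 0.056) or control replicate 2 (adjusted p = 0.063) lost the call, as did DESeq2 (adjusted p = 0.097). Slc1a5, the main glutamine exchanger of many growing cells, had 131 and 130 CPM in PE, against 140.0 and 140.3 CPM in control. The groups did not overlap, but with a log2 fold change of -0.10 ± 0.04 it did not pass (edgeR adjusted p = 0.059). The 95% interval of that change was -0.19 to -0.01. With library totals in place of TMM factors it passed (log2 fold change -0.14, adjusted p = 0.0064).

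The heavy chain Slc3a2 (chromosome 1, 224906731 to 224920916) had 307 and 315 CPM in PE, against 392 and 385 CPM in control. It fell, with a log2 fold change of -0.32 ± 0.03 (edgeR adjusted p = 2.4e-11), and both PE libraries lay below both controls. Its light chains went in different directions. Slc7a5 (LAT1), which brings in leucine in exchange for glutamine, had 74.98 and 76.9 CPM in PE, against 78.7 and 88.4 CPM in control. Its log2 fold change of -0.14 ± 0.06 just missed the threshold (edgeR adjusted p = 0.052). It passed without control replicate 1 (adjusted p = 0.0061), with the replicate number as a block (adjusted p = 0.042), with library totals (adjusted p = 0.010) and with no filter on low counts (adjusted p = 0.045). Slc7a8 (LAT2), which exchanges a broader range of neutral amino acids, had 8.86 and 9.75 CPM in PE, against 15.9 and 14.6 CPM in control. It was 1.63-fold lower (edgeR adjusted p = 1.1e-04), and the groups were far apart relative to their replicates.

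Slc7a11 (xCT; chromosome 2, 139461029 to 139528032), which takes up cystine for glutathione synthesis in exchange for glutamate, had 11.3 and 9.43 CPM in PE, against 16.5 and 18.97 CPM in control. It was 1.72-fold lower, with a log2 fold change of -0.78 ± 0.14 (edgeR adjusted p = 1.7e-05). Slc7a6, an exchanger of cationic for neutral amino acids, had 48.8 and 51.9 CPM in PE, against 43.1 and 44.0 CPM in control. Its log2 fold change of 0.21 ± 0.07 passed (edgeR adjusted p = 0.018), but not without PE replicate 2 (adjusted p = 0.16), control replicate 1 (adjusted p = 0.094) or control replicate 2 (adjusted p = 0.051). Library totals (adjusted p = 0.060) and DESeq2 (adjusted p = 0.17) also lost this call. Slc7a7, the related exchanger of epithelia and macrophages, had 39 and 31 counts in PE, against 43 and 69 in control. With a log2 fold change of -0.59 ± 0.27 it did not pass (edgeR adjusted p = 0.078), and it passed without control replicate 1 (adjusted p = 0.038).

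Relative to the heavy chain, the light chains Slc7a6, Slc7a5, Slc7a8 and Slc7a11 stood differently in the groups. The ratio was not taken for Slc7a7, the scarcest of the 5 light chains. Footprints per nucleotide on Slc7a6 were 17.5% and 18.1% of those on Slc3a2 in PE, against 12.1% and 12.6% in control. Those on Slc7a5 were 27.0% and 27.0% in PE, against 22.2% and 25.4% in control. Slc7a8 stood at 3.07% and 3.29% in PE, against 4.32% and 4.01% in control, and Slc7a11 at 4.15% and 3.38% in PE, against 4.74% and 5.55% in control. The first pair of genes was higher relative to Slc3a2 in each PE library, and the second pair was lower. Slc7a5 made up about the same part of the 5 light chains in all libraries, with 51.1% and 51.2% in PE and 50.04% and 51.9% in control. These ratios were not tested.

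**Figure D3:**
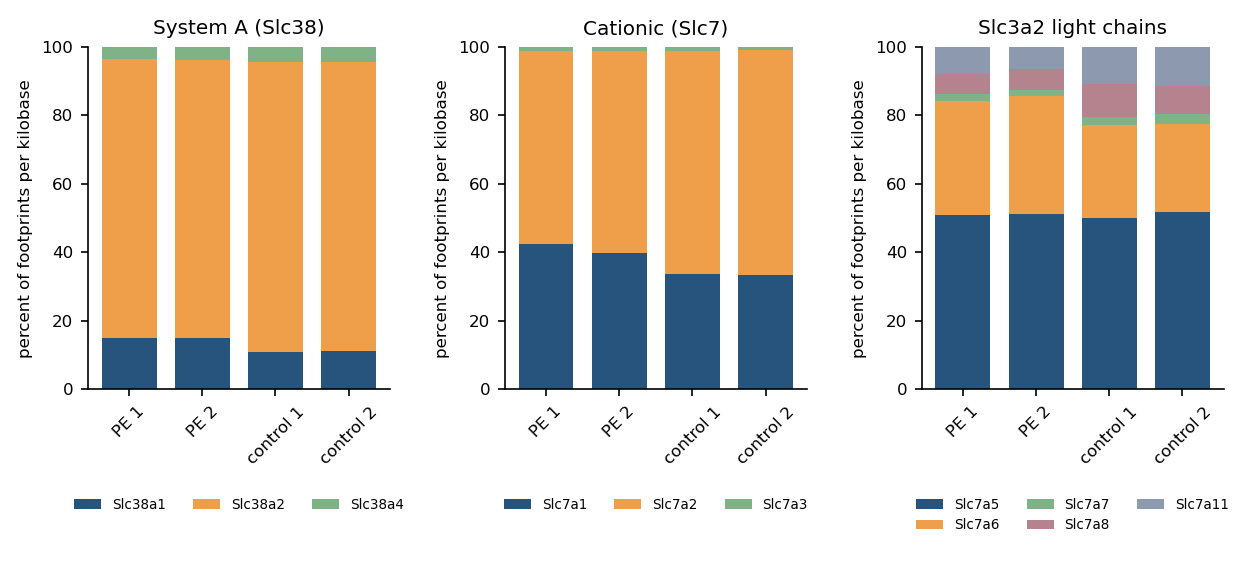
Make-up of 3 transporter systems in each library, as percent of the summed footprints per kilobase of the genes shown, with PE libraries left of control libraries. Slc38a1 takes 14.9% of system A in both PE libraries and 11.01% to 11.2% in control, and Slc7a1 takes 39.997% to 42.5% of the cationic carriers in PE and 33.3% to 33.6% in control.

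The cationic amino acid importers shifted against each other. Slc7a2 (chromosome 16, 54460411 to 54479497), which supplies arginine to nitric oxide synthase and arginase in many cells, had 128 and 133 CPM in PE, against 165 and 166 CPM in control. It was 1.27-fold lower, with a log2 fold change of -0.34 ± 0.04 (edgeR adjusted p = 3.0e-08), and both PE libraries were below both controls. Slc7a1, the widely expressed arginine importer, had 97.9 and 91.5 CPM in PE, against 86.1 and 85.3 CPM in control. Its log2 fold change of 0.14 ± 0.05 passed (edgeR adjusted p = 0.029), but not without PE replicate 1 (adjusted p = 0.29), control replicate 1 (adjusted p = 0.077) or control replicate 2 (adjusted p = 0.12). It also did not pass with library totals (adjusted p = 0.13) or DESeq2 (adjusted p = 0.21).

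The rest of the Slc7 family was scarce. Slc7a4, a relative of the cationic carriers, had 11 and 30 counts in PE, against 39 and 50 in control, and fell by 1.04 ± 0.35 on the log2 scale (edgeR adjusted p = 0.016). The PE libraries differed widely, and the call was lost without PE replicate 1, where the log2 fold change was -0.51 (adjusted p = 0.30), or if control replicate 2 was left out (adjusted p = 0.056), and with DESeq2 (adjusted p = 0.14). Without PE replicate 2 the log2 fold change was -1.90. Slc7a3 had 31 to 34 counts in each library and a 95% interval of -0.62 to 0.64 for its log2 fold change. Only 0.300 counts per P-site were assigned to it, where a second, unannotated ORF of the gene with 333 P-sites begins at the same base of the X chromosome and was listed with 0 counts. Slc7a9, the light chain of the kidney cystine transporter, had 1 and 2 counts in PE and 6 and 10 in control and was not tested.

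The Slc43 pair on chromosome 3 also parted. Slc43a1 (LAT3; 72238981 to 72264466), a facilitative carrier of leucine and other large neutral amino acids, had 12.6 and 13.4 CPM in PE, against 17.8 and 18.9 CPM in control, and was 1.41-fold lower (edgeR adjusted p = 0.0013). Its neighbour Slc43a3 (72331011 to 72350269), a family member characterised in human cells as a purine nucleobase carrier, had 34.4 and 34.5 CPM in PE, against 27.9 and 30.0 CPM in control. Its log2 fold change of 0.24 ± 0.09 passed (edgeR adjusted p = 0.025), but not without PE replicate 1 (adjusted p = 0.079), PE replicate 2 (adjusted p = 0.083) or control replicate 1 (adjusted p = 0.17). It did not pass with library totals (adjusted p = 0.065) or DESeq2 (adjusted p = 0.18) either. Slc43a2 (LAT4) had 16.8 and 13.6 CPM in PE, against 12.1 and 14.2 CPM in control, and its groups overlapped (edgeR adjusted p = 0.25).

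Of the Slc36 carriers, Slc36a4 was called lower and Slc36a1 was not called. Slc36a1, which exports small amino acids from lysosomes, had 15.9 and 18.0 CPM in PE, against 18.0 and 18.2 CPM in control, with a 95% interval of -0.33 to 0.15 for its log2 fold change. Slc36a4 had 12.5 and 10.7 CPM in PE, against 17.1 and 14.0 CPM in control. Its log2 fold change of -0.41 ± 0.14 passed (edgeR adjusted p = 0.018), but not without PE replicate 2 (adjusted p = 0.17), without control replicate 1 (adjusted p = 0.20) or with DESeq2 (adjusted p = 0.16). Slc36a2 had no count in any library and Slc36a3 had 1 in PE and 1 in control, so neither was tested.

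Few other ORFs were listed on these genes. An upstream ORF of 186 nt on Slc1a3, which ends 38 nt before the coding start, had 51 and 61 counts in PE, against 23 and 43 in control. It rose by 0.85 ± 0.27 on the log2 scale (edgeR adjusted p = 0.013), beside 0.60 for the coding ORF, and the difference between them was not tested. Of its P-sites only 30.2% were in the reading frame of the ORF, where 84.7% were over all ORFs. An upstream ORF of 42 nt on Slc38a10 had 63 and 82 counts in PE, against 61 and 72 in control. It did not pass, with a 95% interval of -0.23 to 0.63, while the coding ORF fell, and here 85.6% of P-sites were in frame. The difference was not tested for this pair either.

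The genes around the transporters were read from the same test in 7 lists of related genes. These lists were chosen with earlier results of these data known, so their counts are descriptions and no independent test. Over annotated ORFs, 22.3% were called higher and 22.7% lower, together 45.0%, which is the background for the counts of each list below. The changes below are log2 fold changes ± SE, and each gene said to have risen or fallen had an edgeR adjusted p of at most 0.031. Breakdown of branched chain amino acids had 14 of 18 tested genes lower and 2 higher, with a median log2 fold change of -0.36 against -0.01 over annotated ORFs. The E1 subunit Bckdha had 67.0 ± 0.463 CPM in PE and 143 ± 4.56 CPM in control (SD, n = 2), a log2 fold change of -1.09 ± 0.05. The mitochondrial aminotransferase Bcat2, which starts leucine breakdown, fell by 0.95 ± 0.04, the leucine pathway carboxylase subunit Mccc1 by 1.03 ± 0.05 and the phosphatase Ppm1k, which activates the E1 complex, by 0.75 ± 0.05. The cytosolic aminotransferase Bcat1 went the other way, with 127 ± 2.13 CPM in PE and 95.1 ± 1.72 CPM in control, and rose by 0.42 ± 0.05. Auh, a hydratase of leucine breakdown, rose by 0.26 ± 0.08. Without PE replicate 1 or control replicate 2, 1 gene of this list was called higher in place of 2.

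Glutathione genes had 4 of 7 tested members higher and 0 lower, with a median of 0.16, beside the fall of the cystine importer Slc7a11. Glutathione synthetase Gss rose by 0.55 ± 0.07, the γ-glutamyltransferase relative Ggt7 by 1.07 ± 0.17, the catalytic subunit Gclc of the rate-limiting ligase by 0.27 ± 0.06 and the antioxidant transcription factor Nfe2l2 by 0.08 ± 0.03. Of 14 genes of glutamine, glutamate and aspartate metabolism, 5 were lower and 3 higher, with a median of -0.03. Glutamine synthetase Glul fell by 0.37 ± 0.03, the aspartate aminotransferases Got2 and Got1 by 0.27 ± 0.03 and 0.08 ± 0.02, and glutamate dehydrogenase Glud1 by 0.14 ± 0.03. Argininosuccinate synthase Ass1, which takes part in remaking arginine from citrulline, rose by 0.70 ± 0.07 and ornithine aminotransferase Oat by 0.12 ± 0.03. The glutaminase Gls2 rose by 1.08 ± 0.40 at low counts, 27 and 25 in PE against 10 and 16 in control. Without PE replicate 2, the number lower in this list was 3.

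The ATF4 and amino acid response list had 7 higher and 5 lower of 21 tested, with a median of -0.06. Asparagine synthetase Asns, a well-known ATF4 target, rose by 0.26 ± 0.05, the serine hydroxymethyltransferase Shmt2 by 0.38 ± 0.05, the proline enzyme Pycr1 by 0.51 ± 0.14 and the serine phosphatase Psph by 0.41 ± 0.12. The serine synthesis enzymes Phgdh and Psat1 fell by 0.44 ± 0.08 and 0.39 ± 0.12, the transcription factor Atf5 by 0.59 ± 0.12 and the leucine sensor Sesn2 by 0.38 ± 0.13. Over annotated ORFs, 22.3% were higher and 22.7% lower, so calls in both directions were also seen across the whole table. Without PE replicate 2, 4 genes of the list were higher, and without control replicate 1, 2 were lower.

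Amino acid sensing and mTORC1 had 4 higher and 6 lower of 28, with a median of -0.06. The translation repressor Eif4ebp1 rose by 0.49 ± 0.07, the mTORC1 activator Rheb by 0.35 ± 0.06, the lysosomal anchor subunit Lamtor4 by 0.26 ± 0.07 and Sesn3 by 0.30 ± 0.11. Sesn1, a leucine sensor that restrains mTORC1, fell by 0.66 ± 0.08, Fnip2, a folliculin partner, by 0.78 ± 0.12, the Rag GTPase Rragd by 0.71 ± 0.12 and the mTORC1 inhibitor Tsc2 by 0.28 ± 0.06. Without control replicate 1, 2 genes of this list were higher in place of 4.

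Amino acid carriers of other families also had more genes lower than higher, with 7 lower and 2 higher of 15 tested and a median of -0.38. The taurine importer Slc6a6, with 323 ± 0.0872 CPM in PE and 252 ± 1.35 CPM in control (SD, n = 2), rose by 0.36 ± 0.03, and the peptide transporter Slc15a2 rose by 2.18 ± 0.50 at under 2 CPM. The mitochondrial aspartate-glutamate exchanger Slc25a12 fell by 0.37 ± 0.04, the endolysosomal Slc15a3 by 0.70 ± 0.11 and Slc6a17 by 0.60 ± 0.12. The aromatic amino acid carrier Slc16a10 fell by 2.20 ± 0.28, with only 31 and 13 counts in PE, against 83 and 133 in control. Of 14 regulators and partners of transporters, 3 were higher and 5 lower, with a median of -0.01. Basigin (Bsg) and Cd44, surface glycoproteins that associate with transporters, rose by 0.21 ± 0.02 and 0.24 ± 0.03, and Myc by 0.45 ± 0.07. The arrestin-like Txnip fell by 0.32 ± 0.02, the ubiquitin ligases Nedd4 and Nedd4l by 0.11 ± 0.02 and 0.49 ± 0.07, and the kinase Sgk1 by 0.32 ± 0.06.

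**Figure D4:**
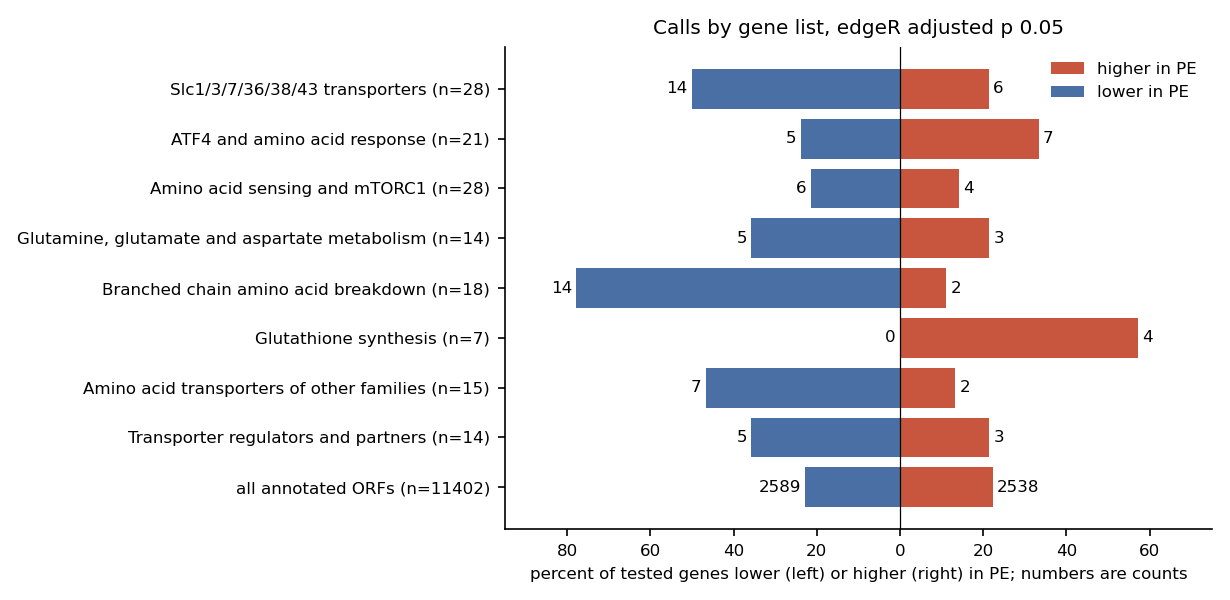
Percent of tested genes called lower (left of 0) or higher (right of 0) in PE by edgeR, for the transporters, the 7 related lists and all annotated ORFs, with the number of genes beside each bar. The transporters have 14 lower and 6 higher of 28, and branched chain amino acid breakdown 14 lower and 2 higher of 18. The list labelled glutathione synthesis, which also holds genes such as Ggt7 and Nfe2l2, has 0 lower and 4 higher of 7.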

How the data were processed

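The submitters' processing notes name STAR 2.4.2a, Bowtie 1.1.2, cutadapt 2.0 and the genome Rnor_6.0. Which programs called and counted the ORFs is not given in the sources used here. Per the labels' protocols, cells were lysed with cycloheximide, lysates were digested with RNase I, and ribosomal RNA was depleted. Unnormalized footprint counts were deposited by the authors for 18847 ORFs. Their second table holds ORF coordinates, printed as the file gives them, pooled P-site counts per frame and, per the file headers, the authors' own DESeq2 log2 fold changes and p-values. The P-site RPKM column that the authors deposited was not used in any result, and RPKM in the report was computed from the counts. The number of per-sample columns left unused was 0.

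Groups and replicate numbers came from the sample titles, because the treatment protocol names PE for all libraries. Counts were filtered with filterByExpr, scaled by TMM, whose factors lay between 0.982 and 1.02, and compared by the robust quasi-likelihood test of edgeR 4.0.16 in R 4.3.3, with group as the only term and all 4 libraries in the fit. Adjustment of p-values was over 12609 ORFs. SE is the log2 fold change over the square root of F. The spread was low (common biological coefficient of variation 2.18%), so small changes can be called. The procedure was tested on counts simulated with the spread fitted to these libraries. Such counts cannot show whether the variation between replicates is only technical. Members and lists were chosen with earlier results of these data known. Members shown by library are those past the threshold with groups apart and a mean count of at least 20, plus Slc1a5, Slc3a2, Slc7a1, Slc7a5, Slc7a11, Slc38a1 and Slc38a2, with remaining members given more briefly. Up to 4 genes per list and direction, by smallest p, are named. Alternatives were RLE factors, library totals, no filter, DESeq2 1.42.0, a 1.5-fold test, a replicate block, removal of the trend with ORF length, a limit of 0.5 counts per P-site and leaving out each library.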

Additional observations from a re-analysis of the deposited data

How the results depend on the processing

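Signs of the called members held under every alternative run. Among uncalled members, Slc7a3 turned to a log2 fold change of -0.035 with library totals, and leaving out each library gave -0.15 to 0.16 for Slc7a3, -0.086 to 0.054 for Slc38a3 and -0.12 to 0.031 for Slc38a9. With library totals 3 members were called higher and 16 lower, and over all ORFs 2333 higher and 3093 lower. With DESeq2, 3 members were higher and 10 lower. Against a 1.5-fold change, 1 was higher and 1 lower. For genes of the 7 related lists, with 25 higher and 42 lower, DESeq2 called 16 higher, and the 1.5-fold test 2 higher and 5 lower. Over all ORFs, with 2696 higher and 2690 lower, DESeq2 called 1724 higher and 1721 lower, and the 1.5-fold test 459 and 550. The members' median of -0.16 was -0.20 with library totals, a setting that lowers the median of all tested ORFs by 0.04. Leaving out each library gave 3 to 4 members higher, 11 to 15 lower and a median of -0.21 to -0.15. With 1 library left in a group, it is assumed to vary like the other group. With a replicate block, 6 members were higher and 15 lower, as Slc7a5 passed (adjusted p = 0.042), and no other member's call changed. The replicate numbers do not pair the samples by label, and deviations of same-numbered libraries correlated at -0.02 across ORFs. The longest annotated ORF was the one used for all 33 genes. Members under about 50 counts per library, such as Slc38a5 and Slc7a4, have intervals over 1 log2 unit wide, so depth limits them.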
